A study of Xenopus laevis with 79 samples.

Results

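The 10 loci described here carry the enzymes of serine and asparagine synthesis, with 2 companions, in the ectoderm of Xenopus laevis neurulae. The list of 6 loci (asns.l, psat1.l, psph.l, phgdh.l, shmt2.l and chac1-like.l) was selected on their log2 CPM (CPM, counts of a locus per megacount of its library, with library sizes scaled by edgeR's trimmed mean method, TMM) in dissected explants against whole embryos of matching stage, by region and stage, and the other copy of each gene was added where the count table of 45099 loci names one. X. laevis is an allotetraploid frog, and the suffixes .l and .s mark the copies on its long and short chromosomes. By name, psat1, psph, phgdh and shmt2 have 2 copies in the table, and asns and chac1-like have 1. Because the explant and whole-embryo levels chose the list, they are given below as a description with no test. The same St. 14 explants carry the differences between embryos, which for the 10 loci are therefore also described without a test.

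All embryos were wild type, fertilized in vitro and staged by Nieuwkoop and Faber (St.). A library held a single fragment from a single embryo, cut away from the underlying mesoderm, and the labels give several fragments the same embryo number. The St. 12.5 explants were neural plate, cut into an anterior (NPa, 3 libraries) and a posterior piece (NPp, 3), neural border from the anterior (NBa, 4), posterior (NBp, 3) or lateral side (NBl, 3), the anterior border together with preplacodal ectoderm (ANB/PPE, 3), and ectoderm outside the neural field (NNE, 3). The St. 14 explants were NPa (3), NPp (4), NBa (6), NBp (5), the anterior fold together with preplacodal ectoderm (ANF/PPE, 5), nonneural ectoderm from the anterior (NNEa, 3) or posterior side (NNEp, 3), and plate or border left whole (NP, 2, and NB, 4). The St. 17 explants were of neural crest (NC, 4) or placodes (Pc, 2). There were 16 whole-embryo libraries, 2 per stage, of St. 11-11.5, St. 12, St. 12.5, St. 13, St. 14, St. 14-15, St. 16-17 and St. 18-19. How many embryos entered a whole-embryo library is not stated in the labels, but the study's web tool describes each point of its time series as a single embryo. The total is 79 libraries, 63 of them dissected.

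Serine is made from a glycolytic intermediate in 3 steps, by the dehydrogenase Phgdh, the aminotransferase Psat1 and the phosphatase Psph. The mitochondrial hydroxymethyltransferase Shmt2 then splits serine into glycine and a one-carbon unit carried by folate. Asns makes asparagine from aspartate with glutamine as the nitrogen donor. Chac1 breaks down glutathione, and in mammals it is switched on with the other enzymes when amino acids run short, through the transcription factor Atf4 of the integrated stress response. In mammals the tRNA synthetases, several amino acid transporters and the regulators Atf3 and Ddit3 belong to the same response.

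Libraries held 8898486 to 18468048 counts on loci (median 13134905), and HTSeq's summary entries made up a further 15.7% to 25.5% of each total. Fragments that map to several places were not counted, so sequence shared by the .l and .s copies gave no counts, and levels are compared within a locus only. Markers of the inner germ layers were lower in most explants than in whole embryos. At St. 14 the summed level of 18 endoderm marker loci was 4.56 to 332 CPM in explants, against 1778 to 1861 CPM in whole embryos, and that of 13 mesoderm marker loci had a median of 19.3 CPM (range 2.28 to 2429) in explants, against 701 to 733 CPM in whole embryos. The explant with the highest mesoderm sum carries no embryo number. At St. 12.5 the mesoderm sum reached 811 CPM in NBp, 565 CPM in NPp and 459 CPM in NBl, against at most 8.57 CPM in the other regions. The endoderm sum reached 572 CPM in NPa and 504 CPM in ANB/PPE there. At St. 17 it was 657 and 678 CPM in Pc, against 41.3 to 263 CPM in NC. The part of these markers in the differences between regions was not tested. Embryos 10 and 11 of St. 14 stood apart from the other explants in the loci described, so results that rest on them are also given without them. They gave 13 of the 35 St. 14 explants, among them every NPa and NNEp library. The 2 whole-embryo libraries of St. 14 also stood apart from their neighbors in time: the neural marker sum was 398 to 433 CPM in them, against 331 to 339 CPM at St. 13 and 220 to 242 CPM at St. 14-15. In bulk libraries, more cells that express a gene and more RNA per cell cannot be told apart.

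Phgdh, the first of the serine enzymes, had most of its explants above the whole embryos for the copy phgdh.s. At St. 12.5 phgdh.s ranged from 14.1 to 32.3 CPM in the 22 explants (median 20.9), against 13.8 and 16.6 CPM in whole embryos, and 18 explants lay above both whole embryos. At St. 14 it ranged from 4.24 to 91.6 CPM in the 35 explants (median 14.5), against 6.05 and 6.68 CPM in whole embryos. The St. 14 explants thus lay mostly above the whole embryos, in 32 of 35 libraries, but spread over a far wider range than at St. 12.5. For comparison, 14.5% of all loci tested were called higher in explants at St. 12.5 and 7.95% at St. 14 (31.8% and 19.9% in either direction), by edgeR's quasi-likelihood F test at a false discovery rate (FDR) under 0.05. These are shares of calls, a different measure. The share of all loci with so many explants above both whole embryos was not computed, for this locus or the others below. The other copy, phgdh.l, had 0.096 to 6.09 CPM in the St. 12.5 explants (median 1.78), against 0.95 and 0.765 CPM in whole embryos. At St. 14 it had 0.266 to 15.3 CPM in explants (median 1.72), against 0.856 and 2.66 CPM in whole embryos, and the groups overlapped.

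The aminotransferase copies differed in when they stood above the whole embryos. At St. 12.5 psat1.l had 5.78 to 58.1 CPM in explants (median 18.1), against 4.27 and 6.19 CPM in whole embryos, so that 21 of 22 explants were above both whole embryos. The same locus had 9.85 to 592 CPM in the St. 14 explants (median 74.3), against 27.9 and 25.2 CPM in whole embryos. Here 27 of 35 explants were above both whole embryos and 7 below both. The copy psat1.s was the only one of the 10 that lay mostly below the whole embryos at St. 12.5, with 0 to 1.25 CPM in explants (median 0.389), against 0.882 and 0.904 CPM in whole embryos, which is 0 to 13 counts in explants and 13 in each whole-embryo library. At St. 14 it had 0.154 to 201 CPM in explants (median 14.8), against 3.48 and 5.25 CPM in whole embryos. It was above both whole embryos in 19 of those 35 libraries and below both in 13.

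The phosphatase copies followed the same outline. At St. 12.5 psph.l had 7.26 to 18.4 CPM in explants (median 11.3), against 9.64 and 10.6 CPM in whole embryos, and psph.s had 27.4 to 105 CPM in explants (median 48.7), against 25.3 and 37.5 CPM in whole embryos. At St. 14 psph.l had 3.67 to 181 CPM in explants (median 24.2), against 10.1 and 11.2 CPM in whole embryos. At St. 14 psph.s had 15 to 355 CPM in explants (median 69.2), against 41.2 and 44.9 CPM in whole embryos. Both copies had explants on either side of the whole embryos at St. 14, with 20 above and 13 below for psph.l and 24 above and 11 below for psph.s.

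Relative to its level, Shmt2 had the narrowest range of the loci at St. 14. At St. 12.5 shmt2.l had 23.3 to 65.1 CPM in explants (median 37.1), against 25 and 25.4 CPM in whole embryos, and at St. 14 it had 17.7 to 64.4 CPM in explants (median 36.7), against 23.8 and 25.2 CPM in whole embryos. At St. 14 shmt2.s had 13.6 to 52.1 CPM in explants (median 29), against 17.1 and 14.5 CPM in whole embryos. Explants above both whole embryos at St. 14 numbered 31 of 35 for shmt2.l and 33 of 35 for shmt2.s, the highest count of the 10 loci. The asparagine synthetase locus asns.l was sparsely counted, with 6 to 25 counts in the St. 12.5 explants, against 12 and 14 in whole embryos. At St. 14 it had 0 to 46 counts in explants, against 8 and 15 in whole embryos.

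chac1-like.l was all but silent at St. 12.5, with 0 to 4 counts in the 22 explants, against 2 and 0 counts in whole embryos, and it was too low to be tested there. At St. 14 it had 0 to 7285 counts in the 35 explants, against 1 and 2 counts in whole embryos. In CPM, that is 0 to 542 in explants (median 22.8), against 0.0611 and 0.124 in whole embryos. The explants of St. 14 thus ran from libraries with no count of this locus to 1 library with 7285.

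**Figure D1:**
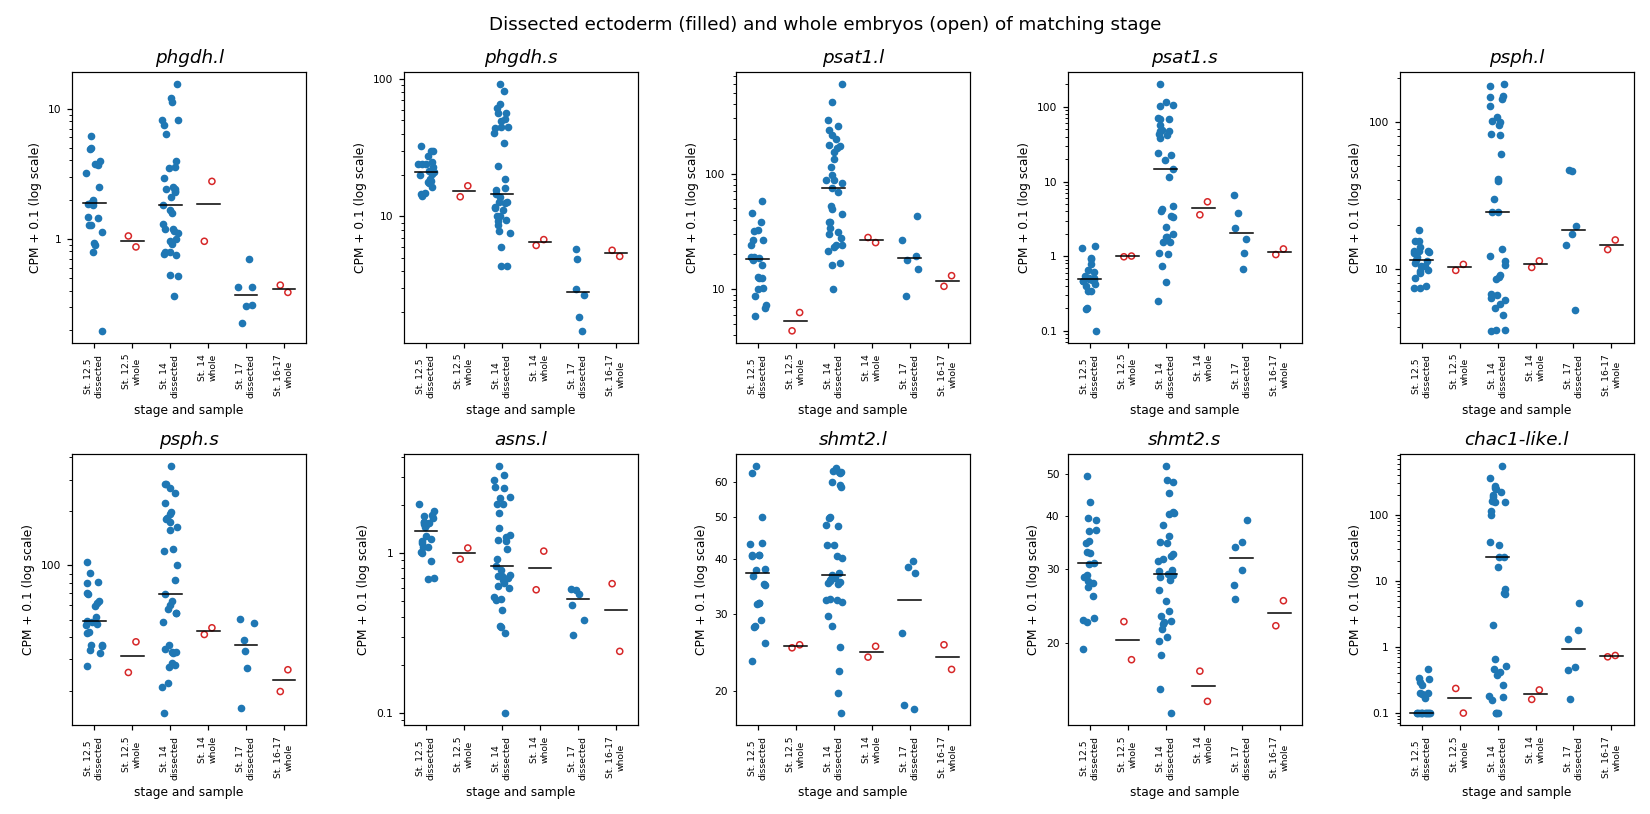
Levels of the 10 loci (CPM + 0.1, log axis) in dissected explants (filled points) and whole embryos (open points) at St. 12.5, at St. 14, and at St. 17 (St. 16-17 for whole embryos), 1 point per library and a line at the median. The St. 14 explants spread most for chac1-like.l, from 0 to 542 CPM, while the shmt2 copies keep within 13.6 to 65.1 CPM at St. 12.5 and St. 14.

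As differences of region means from whole embryos on the log2 scale, the loci ordered differently at the 2 stages. At St. 12.5 the explants minus whole embryos gave 1.8 ± 0.39 (SE) for psat1.l, 1.16 ± 0.54 for phgdh.l, 0.78 ± 0.23 for psph.s, 0.50 ± 0.20 for phgdh.s, 0.48 ± 0.40 for asns.l, 0.20 ± 0.22 for psph.l and -0.96 ± 0.66 for psat1.s. At St. 14 they gave 3.12 ± 1.59 for psat1.s, 2.56 ± 1.32 for psph.l, 2.36 ± 0.99 for psat1.l, 2.32 ± 0.99 for phgdh.s, 1.68 ± 0.89 for psph.s, 0.65 ± 0.87 for phgdh.l and 0.58 ± 0.86 for asns.l. The shmt2 copies gave 0.59 ± 0.22 (shmt2.l) and 0.66 ± 0.25 (shmt2.s) at St. 12.5, and 0.90 ± 0.32 and 1.06 ± 0.35 at St. 14. Standard errors were larger at St. 14 than at St. 12.5 for each of the 9 loci with a value at both stages. chac1-like.l has no difference here, since it was too low to be tested at St. 12.5 and its fold rests on 1 and 2 counts in whole embryos at St. 14.

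Leaving out the explants of embryos 10 and 11 also removes all NPa and NNEp libraries, and so those regions from the mean. Loss of embryos and loss of regions cannot be told apart in these values. In that fit the St. 14 differences were smaller. They came to 1.0 for psat1.l, 0.67 for psat1.s, 0.41 for psph.l, 0.30 for psph.s, 0.78 for phgdh.s and 0.43 for shmt2.l, and turned negative for phgdh.l (-0.54) and asns.l (-0.45). With the whole embryos of St. 14-15 in place of those of St. 14, and embryos 10 and 11 kept, they were 3.75 for psat1.l, 5.93 for psat1.s, 3.94 for phgdh.l and 0.37 for shmt2.s. At St. 17, against whole embryos of St. 16-17, which match only in part, the differences were 1.30 ± 0.82 for psat1.s, 0.74 ± 0.40 for psph.l, 0.63 ± 0.29 for psph.s, 0.62 ± 0.43 for psat1.l and -0.73 ± 0.34 for phgdh.s.

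Sorted by embryo of origin, the St. 14 explants of some embryos did not overlap for these loci. chac1-like.l had 184 to 542 CPM in the 8 libraries of embryo 10 and 113 to 161 CPM in the 5 of embryo 11. It had 16 to 99.3 CPM in the 3 of embryo 14 and 6.2 to 35.5 CPM in the 5 of embryo 13. In the 2 libraries of embryo 2 it had 0 and 0.165 CPM, and in the 9 without an embryo number 0 to 2.04 CPM. Every region of embryos 10 and 11 was high for this locus, nonneural ectoderm and neural plate alike. Embryo 12 had 0.326 CPM in one ANF/PPE library and 23.3 CPM in the other, which is 3 and 280 counts in libraries of the same region and embryo with different label prefixes (B100 and B108), and 0.563 CPM in its NBp library.

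Embryos 10 and 11 were also the highest for phgdh.s and both psat1 copies. phgdh.s had 40.7 to 91.6 CPM in embryo 10 and 34.3 to 56.5 CPM in embryo 11, against 9.33 to 23.3 CPM in embryo 14 and 7.51 to 11.6 CPM in embryo 13. psat1.l had 174 to 592 CPM in embryo 10 and 96.2 to 198 CPM in embryo 11, against 87.5 to 133 CPM in embryo 14 and 23.8 to 74.3 CPM in embryo 13. psat1.s had 41.8 to 201 CPM in embryo 10 and 37.8 to 70.9 CPM in embryo 11, against 14.8 to 43.5 CPM in embryo 14 and 3.22 to 22.7 CPM in embryo 13. Libraries of embryo 14 had medians between those of embryos 10 and 11 and that of embryo 13, with some overlap.

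psph.l had 60.4 to 181 CPM in the 13 libraries of embryos 10 and 11, against 3.67 to 40.5 CPM in the other 22. psph.s had 158 to 355 CPM (median 199) in embryos 10 and 11, against 15 to 124 CPM (median 42.1) in the others. phgdh.s had a median of 51.5 CPM in embryos 10 and 11, against 11.2 CPM in the others. For these 3 loci and chac1-like.l, all 13 libraries lay above all 22 others, and for psat1.l and psat1.s 11 of 13 did. The share of all loci with such a separation was not computed. Embryos 10 and 11 were singled out on these same loci, so the separation restates that choice. The ratio of medians was 12.7 for psph.l, 24.6 for psat1.s, 5.54 for psat1.l, 4.73 for psph.s, 4.58 for phgdh.s, 3.31 for phgdh.l and 3.22 for asns.l, and 1.68 for shmt2.l and 1.46 for shmt2.s. Libraries of embryos 10 and 11 above all others numbered 9 of 13 for shmt2.l, 6 for phgdh.l, 4 for asns.l and 0 for shmt2.s.

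**Figure D2:**
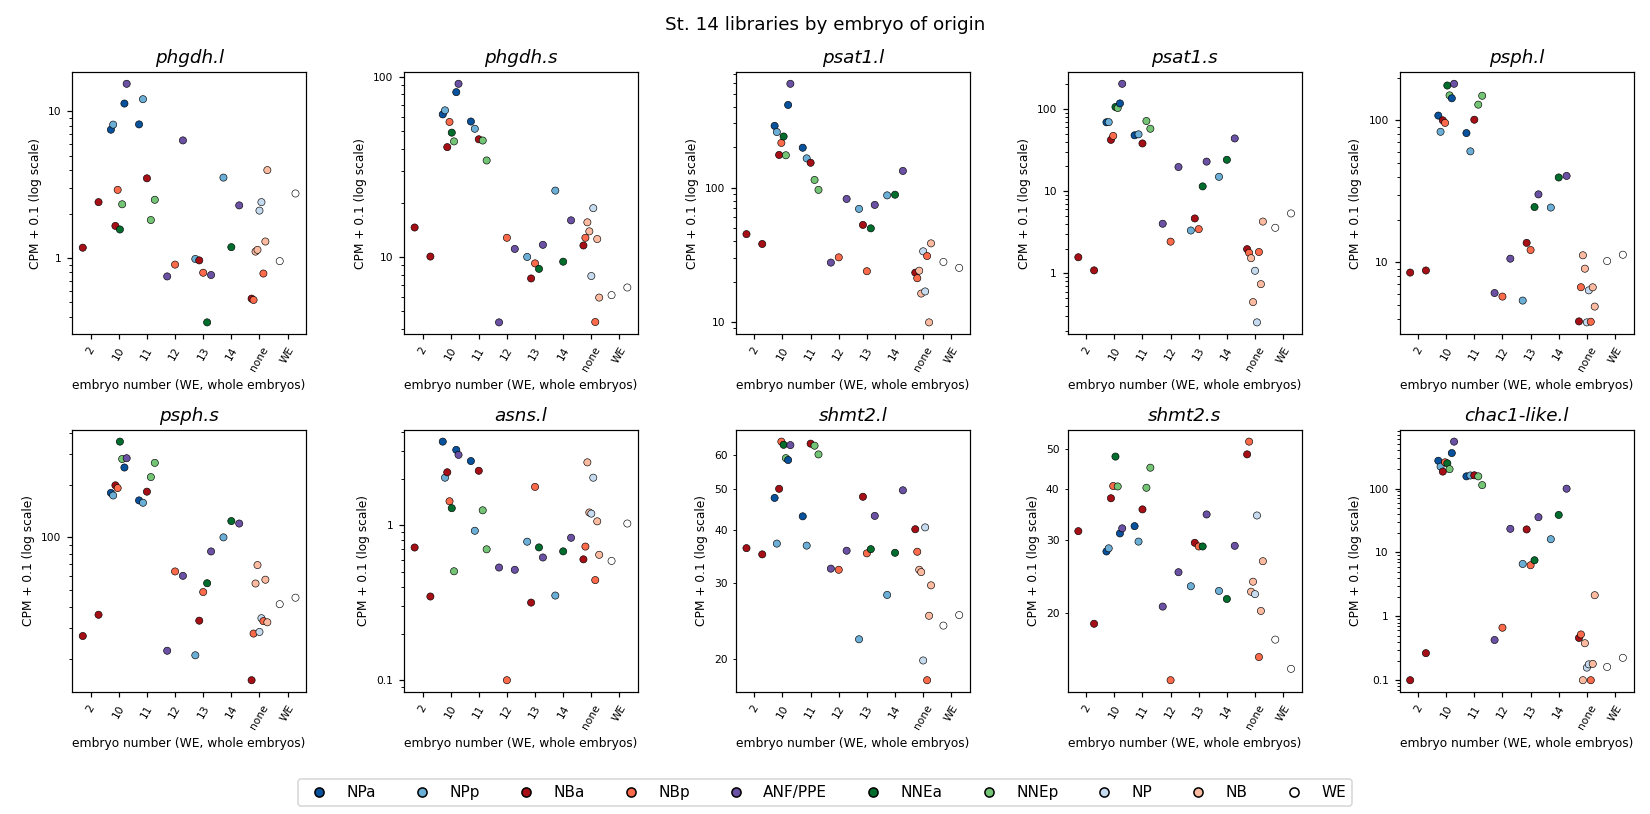
Levels of the 10 loci (CPM + 0.1, log axis) in the St. 14 libraries by embryo number, with 1 point per library, colored by region, and whole embryos at the right. All 13 libraries of embryos 10 and 11 stand above all 22 other explants for psph.l, psph.s, phgdh.s and chac1-like.l, and none does so for shmt2.s. The share of all loci with such a separation was not computed.

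Differences between embryos were read from an edgeR fit of the 6 numbered embryos of St. 14 with region as a covariate, a comparison added after the data had been seen. Embryos 10 and 13 shared 5 regions. Embryo 10 minus embryo 13 was 4.55 ± 0.66 (log2, SE) for chac1-like.l, 3.58 ± 0.33 for psat1.s, 3.03 ± 0.22 for psph.l, 2.70 ± 0.55 for phgdh.l, 2.67 ± 0.25 for phgdh.s, 2.42 ± 0.28 for psph.s and 2.41 ± 0.25 for psat1.l. It was 1.28 ± 0.56 for asns.l, 0.63 ± 0.12 for shmt2.l and 0.35 ± 0.16 for shmt2.s. Replicates here are fragments of few embryos, the standard errors and the p-values below measure the spread between these fragments, and embryo cannot be told apart from clutch or day of dissection, which the labels do not give.

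Embryos 10 and 11 shared 4 regions, and embryo 10 minus embryo 11 ran from -0.16 ± 0.48 for phgdh.l to 0.73 ± 0.25 for psat1.l over the 10 loci. Embryo 10 minus embryo 14, with 3 shared regions, was 3.08 ± 0.77 for chac1-like.l, 2.24 ± 0.38 for psat1.s, 1.96 ± 0.26 for psph.l, 1.95 ± 0.31 for phgdh.s and 1.68 ± 0.31 for psat1.l. The rest were asns.l (1.8 ± 0.71), phgdh.l (1.40 ± 0.62), psph.s (1.08 ± 0.32), shmt2.s (0.60 ± 0.20) and shmt2.l (0.48 ± 0.15). Embryo 13 minus embryo 14 was -1.46 ± 0.71 for chac1-like.l, -1.34 ± 0.36 for psat1.s and -1.33 ± 0.32 for psph.s. It was -1.31 ± 0.66 for phgdh.l, -1.07 ± 0.25 for psph.l, -0.74 ± 0.29 for psat1.l and -0.71 ± 0.29 for phgdh.s. The values were -0.15 ± 0.15 for shmt2.l, 0.25 ± 0.20 for shmt2.s and 0.52 ± 0.72 for asns.l. At St. 12.5, where embryos 4, 5 and 7 gave all 7 regions each, 0 of 9 loci were called among embryos by edgeR (7.55% of all loci were), with shmt2.s at an unadjusted p of 0.0131. DESeq2 called that locus (FDR 0.0462) and limma-voom called none. Levels in these explants also chose the loci, so these results are descriptive.

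Depth and marker sums overlapped between these embryos. Totals were 11145930 to 13134905 counts in embryo 10, against 11171605 to 14186736 in embryo 13, and summary entries were 17.9% to 25.5% in embryo 10, against 18% to 19.3% in embryo 13. Mesoderm marker sums were 3.57 to 60.8 CPM in embryo 10, against 5.13 to 113 CPM in embryo 13, and endoderm sums were 12.4 to 221 CPM in embryo 10, against 6.76 to 77.2 CPM in embryo 13. Embryos 10, 11, 13 and 14 all carry the prefix B108, so that the prefix does not separate them. Nonneural ectoderm marker sums were 1023 to 40027 CPM in embryo 10, against 78.4 to 14387 CPM in embryo 13. In the fit with region as a covariate, the median log2 difference of embryo 10 minus embryo 13 was 1.59 over 10 nonneural ectoderm loci, 0.96 over 12 endoderm loci, -0.51 over 12 mesoderm loci and -0.39 over 9 neural loci, and that of the nonneural loci against embryo 14 was 1.60. The part of these markers in the differences above was not tested.

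Genes around these enzymes were read from 7 lists in the same fit of embryo 10 against embryo 13, where the median log2 difference of all loci was 0.03, and 2.80% of all loci were called higher and 1.88% lower in embryo 10. Of 28 cytosolic aminoacyl-tRNA synthetases, which load amino acids onto tRNA, 21 were higher and 0 lower in embryo 10 (median 0.86). Among them vars.l, the valine enzyme, differed by 0.60 (FDR 0.0089), with median levels of 124 CPM in embryo 10 and 86 CPM in embryo 13. Of 16 amino acid transporters, 8 were higher and 0 lower in embryo 10 (median 1.69). The large neutral amino acid carrier slc7a5.l differed by 4.35 (FDR 5.44e-07), with medians of 83 CPM in embryo 10 and 4.32 CPM in embryo 13.

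Of 13 folate and one-carbon enzymes, 4 were higher and 0 lower in embryo 10 (median 0.65). One of them, the mitochondrial enzyme mthfd2.l, which takes on the one-carbon unit that Shmt2 releases, differed by 0.83 (FDR 0.000347), with medians of 519 CPM in embryo 10 and 284 CPM in embryo 13. Of 25 other amino acid enzymes, 5 were higher and 1 lower in embryo 10 (median -0.00). The cystathionine synthase locus cbs.l, which draws on serine, differed by 0.60 (FDR 0.0479).

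Of 22 regulators of the amino acid response, 5 were higher and 0 lower in embryo 10 (median 0.35). Atf4, the transcription factor named above, was higher in embryo 10 for atf4.s (0.62, FDR 0.0139), with medians of 200 CPM in embryo 10 and 128 CPM in embryo 13, and did not pass for atf4.l (0.33, FDR 0.142). The growth inhibitor ddit4.l differed by 1.14 (FDR 0.0472). The other called regulators, which the rule for naming loci leaves out, had smaller FDRs than atf4.s and ddit4.l. The stress factors atf3.l (0.74, FDR 0.205), atf3.s (0.75, FDR 0.273), ddit3.l (0.23, FDR 0.697), ddit3.s (-0.76, FDR 0.533) and cebpb.s (0.26, FDR 0.859) did not pass, and cebpb.l was too low to be tested. Of 17 endoplasmic reticulum chaperones 0 passed in this edgeR fit (2 at an unadjusted p under 0.05, median -0.09), and of 25 heat shock and immediate early genes 0 passed (3 at an unadjusted p under 0.05, median -0.18). With 4.68% of all loci called, few or no calls would fall in lists of these sizes at the share of all loci.

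**Figure D3:**
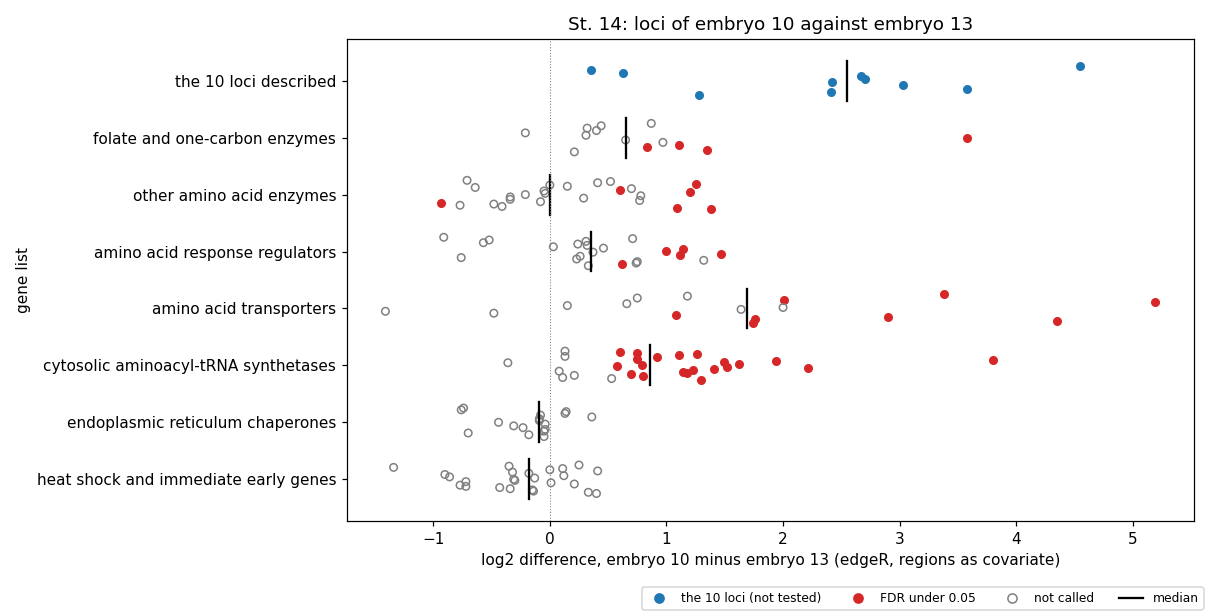
Log2 difference, embryo 10 minus embryo 13 of St. 14, for the 10 loci and the 7 gene lists, with 1 point per locus (filled red where the FDR was under 0.05, blue for the 10 loci, whose values are not tested) and a bar at each list's median. The tRNA synthetases, with 21 of 28 called, and the transporters, with 8 of 16, have medians above 0, and the chaperones and heat shock genes, with 0 called, have medians of -0.09 and -0.18.

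Across all numbered embryos of St. 14, 25 of 28 tRNA synthetases and 12 of 16 transporters differed, against 9.49% of all loci, and 9 of 25 heat shock and immediate early genes also did. Without embryos 10 and 11, when 0.328% of all loci were called, edgeR called 1 heat shock or immediate early gene of 24 and 0 of 28 tRNA synthetases (11 at an unadjusted p under 0.05) and 0 of 16 transporters (3 at an unadjusted p under 0.05). Between explants and whole embryos at St. 14, 9 of 28 tRNA synthetases were higher and 0 lower in explants (7.95% of all loci were higher). Without embryos 10 and 11, and so without NPa and NNEp, 4 of 28 were called, all higher, against 19.3% of all loci called in either direction. Of 22 regulators, 4 were higher and 2 lower in explants at St. 14 (11.9% of all loci were lower). Without embryos 10 and 11, 4 of 22 were called, 2 higher and 2 lower, against 19.3% of all loci in either direction. Atf4 was higher in explants for atf4.l (0.60, FDR 0.0299) and atf4.s (0.79, FDR 0.0477), but neither passed without embryos 10 and 11 (0.40, FDR 0.189, and 0.45, FDR 0.187). ddit3.l was higher in explants with all embryos (1.8, FDR 0.0011) and without those 2 (1.61, FDR 0.00565). The lower ones were ddit4.l (-1.54, FDR 0.00388, and -1.83 without embryos 10 and 11) and the lipoprotein receptor locus vldlr.1 (-2.06, FDR 0.000769, and -1.79 without them). At St. 14 ddit3.s (1.39, FDR 0.276), atf3.l (1.10, FDR 0.108), atf3.s (0.10, FDR 0.927) and cebpb.s (-1.25, FDR 0.0749) did not pass. Without embryos 10 and 11 these 4 did not pass either (FDR 0.14 to 0.907). Of 16 transporters, 0 were higher and 3 lower in explants, among them slc7a8.l (-2.73) and slc38a3.s (-2.90), against 11.9% of all loci lower. At St. 12.5 the lists ranked otherwise, with 13 of 26 heat shock and immediate early genes higher in explants and 1 lower, and 6 of 28 tRNA synthetases higher and 1 lower, against 14.5% of all loci higher. Of 22 regulators, 6 were higher and 4 lower there (17.3% of all loci were lower). Both Atf4 copies were higher in explants at St. 12.5 (atf4.l 0.83, FDR 0.03, and atf4.s 1.34, FDR 0.00611). The atf3 and ddit3 copies and cebpb.s did not pass (FDR 0.0572 to 0.889).

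The loci most like the listed 6 were looked for over the 63 explants, after the mean of each stage and region was subtracted, among 13676 loci with a mean of at least 5 CPM. The 5 highest correlations with the mean of the 6 were ahcy.l (Pearson r 0.943), the enzyme that hydrolyzes S-adenosylhomocysteine, cars.s (0.896) and nars.l (0.872), the cysteine and asparagine tRNA synthetases, and both copies of a locus without a gene symbol in the table, xetrov90006328m.s (0.886) and xetrov90006328m.l (0.882). Libraries of one embryo enter as separate points, so these values describe the same separation of embryos. ahcy.l had a median of 277 CPM in embryo 10 and 65.6 CPM in embryo 13, and nars.l 113 CPM in embryo 10 and 29.1 CPM in embryo 13. Among the 10 loci themselves, the 45 pairs had r of 0.10 to 0.91 (median 0.61), highest for psph.l with psph.s (0.91) and psph.l with phgdh.s (0.90). Copies of one gene were not always the closest, since chac1-like.l with psat1.s gave 0.86, psat1.l with psat1.s 0.82 and shmt2.l with shmt2.s 0.63.

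Among regions of St. 14, the fit without embryo called phgdh.l alone of the 10 loci (FDR 0.00436), against 53.7% of all loci. In that fit NPa minus NBp was 2.98 ± 0.81, NPa minus NNEa 3.16 ± 0.98, NPp minus NBp 2.48 ± 0.76 and NPp minus NNEa 2.66 ± 0.94, and these pairs were called (17.6% of all loci and pairs were). With embryo as a block, NPp minus NNEa was called (2.07 ± 0.68, FDR 0.0263), but NPa minus NNEa (2.09 ± 0.75, FDR 0.0579), NPa minus NBp (1.44 ± 0.72, FDR 0.308) and NPp minus NBp (1.42 ± 0.69, FDR 0.174) were not. NPa and NNEp came only from embryos 10 and 11. Without those embryos the phgdh.l call was lost (FDR 0.19), and psat1.l (0.0313), psat1.s (0.00346) and psph.l (0.0425) were called. Leaving out NBp replicate 2 alone, the only NBp library of embryo 10, also let psat1.l (0.00986), psat1.s (0.0144), psph.l (0.0221) and shmt2.l (0.0149) pass. In embryo 10, phgdh.l had 7.4 and 11.2 CPM in NPa, 8.02 CPM in NPp and 15.3 CPM in ANF/PPE, against 1.47 to 2.82 CPM in its other regions. In embryo 11, phgdh.l had 8.05 CPM in NPa and 12 CPM in NPp, against 3.4 CPM in NBa and 1.72 and 2.4 CPM in NNEp. In embryo 14 it had 3.44 CPM in NPp, against 2.19 CPM in ANF/PPE and 1.09 CPM in NNEa, and in embryo 13 all 5 libraries had 0.266 to 0.889 CPM. Neural plate was thus not above ANF/PPE as a rule, and the blocked differences of NPa and NPp from ANF/PPE were -0.14 ± 0.62 and -0.16 ± 0.59.

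With embryo as a block, which the shared embryos of this design allow, 5 of the 10 loci were called among St. 14 regions. That share is near the 51.3% of all loci. Levels in these explants also chose the loci, so the FDRs are descriptive. They were psat1.s (FDR 0.000571), psph.l (0.0017), shmt2.l (0.0022), psat1.l (0.00805) and phgdh.l (0.0107). chac1-like.l (0.0875), phgdh.s (0.176), psph.s (0.194), shmt2.s (0.206) and asns.l (0.251) did not pass. Both psat1 copies were highest in ANF/PPE within each of embryos 10, 13 and 14. In embryo 12 the 2 ANF/PPE libraries lay on either side of its NBp library for psat1.l (27.6 and 82.3 CPM in ANF/PPE, against 30.2 CPM in NBp) and above it for psat1.s (3.91 and 19.5 CPM in ANF/PPE, against 2.33 CPM in NBp). psat1.s had 201 CPM in ANF/PPE of embryo 10, against 41.8 to 116 CPM in its other regions, 22.7 CPM in ANF/PPE of embryo 13, against 3.22 to 11.3 CPM, and 43.5 CPM in ANF/PPE of embryo 14, against 14.8 and 23.9 CPM. psat1.l had 592 CPM in ANF/PPE of embryo 10, against 174 to 412 CPM, 74.3 CPM in ANF/PPE of embryo 13, against 23.8 to 69.4 CPM, and 133 CPM in ANF/PPE of embryo 14, against 87.5 and 88.5 CPM.

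In the same blocked fit, pairs of regions were compared, a step added after the data had been seen. Of all loci and pairs pooled, 13.9% were called, but the share of all loci differed widely between pairs. It was 41.6% for NPa minus NNEp and 33.4% for NPp minus NNEa. For NBp minus ANF/PPE it was 7.54%, and for NBa minus ANF/PPE 2.59%. The pooled share is thus no background for a single pair. For psat1.s, NBp minus ANF/PPE was -2.37 ± 0.39 (FDR 0.0012), NBa minus ANF/PPE -2.18 ± 0.41 (0.00944), NPp minus ANF/PPE -1.88 ± 0.36 (0.00138) and NPa minus ANF/PPE -1.44 ± 0.41 (0.0495). ANF/PPE minus NNEp was 1.31 ± 0.43 (0.0458). For phgdh.l, NPa minus NNEp (2.17 ± 0.66), NPp minus NNEp (2.16 ± 0.65) and ANF/PPE minus NNEp (2.32 ± 0.71) were called beside NPp minus NNEa. For psph.l, NPp was lower than ANF/PPE (-1.38 ± 0.25), NNEa (-1.25 ± 0.25) and NNEp (-1.08 ± 0.27). NBp was also lower than ANF/PPE for this locus (-0.86 ± 0.25, FDR 0.0433). For shmt2.l, NPp was lower than NBa (-0.78 ± 0.15), NBp (-0.71 ± 0.16), ANF/PPE (-0.86 ± 0.15), NNEa (-0.59 ± 0.15) and NNEp (-0.69 ± 0.16). Posterior neural plate thus had the lowest estimate for psph.l and shmt2.l, and ANF/PPE the highest for psat1.s, but not every pair passed. For psph.l, NPp against NPa (FDR 0.269), NBa (0.105) and NBp (0.222) did not pass. Neither did NPp against NPa for shmt2.l (0.217) or ANF/PPE against NNEa for psat1.s (0.104). chac1-like.l passed for 1 pair of 21, with NPp lower than ANF/PPE (-2.22 ± 0.73, FDR 0.0319). asns.l also passed for 1, with NPa above NNEp (2.12 ± 0.76, FDR 0.0331). psat1.l passed for 3, which were NBp minus ANF/PPE (-1.25 ± 0.30), NPa minus NNEp (1.03 ± 0.33) and ANF/PPE minus NNEp (1.43 ± 0.35). phgdh.s, psph.s and shmt2.s passed for 0.

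At St. 12.5, 4 of the 9 tested were called among regions, a share near the 38.4% of all loci. Levels in these explants also chose the loci, so the FDRs are descriptive. psph.s had the smallest FDR (2.23e-05). It had 35 ± 1.17 CPM (SD, n = 3) in NPp and 36.8 ± 9.78 CPM in NPa, against 76.7 ± 6.66 CPM in ANB/PPE and 89 ± 17.5 CPM in NNE. Neural plate was thus low, and nonneural and preplacodal ectoderm high, for this copy. NPp minus NNE was -1.47 ± 0.22 (SE) and NPp minus ANB/PPE -1.21 ± 0.22 on the log2 scale. The 3 other regions, NBp, NBl and NBa, lay between, at 56.1 ± 8.09, 54.5 ± 8.1 and 41.6 ± 6.8 CPM, and of the 21 pairs of regions 8 passed (14.3% over all loci and pairs).

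psat1.l had another order of regions (FDR 0.000303), highest in NBl at 45.1 ± 13.2 CPM (SD, n = 3). NPp followed at 24 ± 7.95 CPM, NBp at 23.6 ± 4.94 CPM and NBa at 22 ± 10.9 CPM (n = 4), and NNE, ANB/PPE and NPa had 13.2 ± 4.87, 9.92 ± 2.62 and 7.6 ± 2.32 CPM. NBl was the highest region within each of embryos 4, 5 and 7, but its differences from NPp, NBp and NBa did not pass (FDR 0.117 to 0.17). NPa minus NBl was -2.53 ± 0.40, NBl minus ANB/PPE 2.02 ± 0.39, NBl minus NNE 1.55 ± 0.38 and NPa minus NPp -1.70 ± 0.39. phgdh.l was highest in NPa (FDR 0.0039), at 4.85 ± 1.23 CPM (SD, n = 3), followed by ANB/PPE at 3.71 ± 1.25 CPM. NBp had 0.749 ± 0.635 CPM and NPp 1.09 ± 0.566 CPM, with NPa minus NBp at 2.65 ± 0.58 and NPa minus NPp at 2.09 ± 0.56. NPa was thus the lowest region for psat1.l and the highest for phgdh.l.

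psph.l was highest in NNE, with 15.9 ± 2.25 CPM (SD, n = 3), against 9.42 to 13.3 CPM as means of the other regions, but its call (FDR 0.0381) was lost in 11 of 22 fits that leave out a library (FDR 0.0252 to 0.186) and with no filter on low counts (0.262). Both psph copies thus had their highest mean in NNE at St. 12.5. phgdh.s, shmt2.l, shmt2.s, psat1.s and asns.l did not pass the test over all regions (FDR 0.188 to 0.847), and chac1-like.l was not tested.

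**Figure D4:**
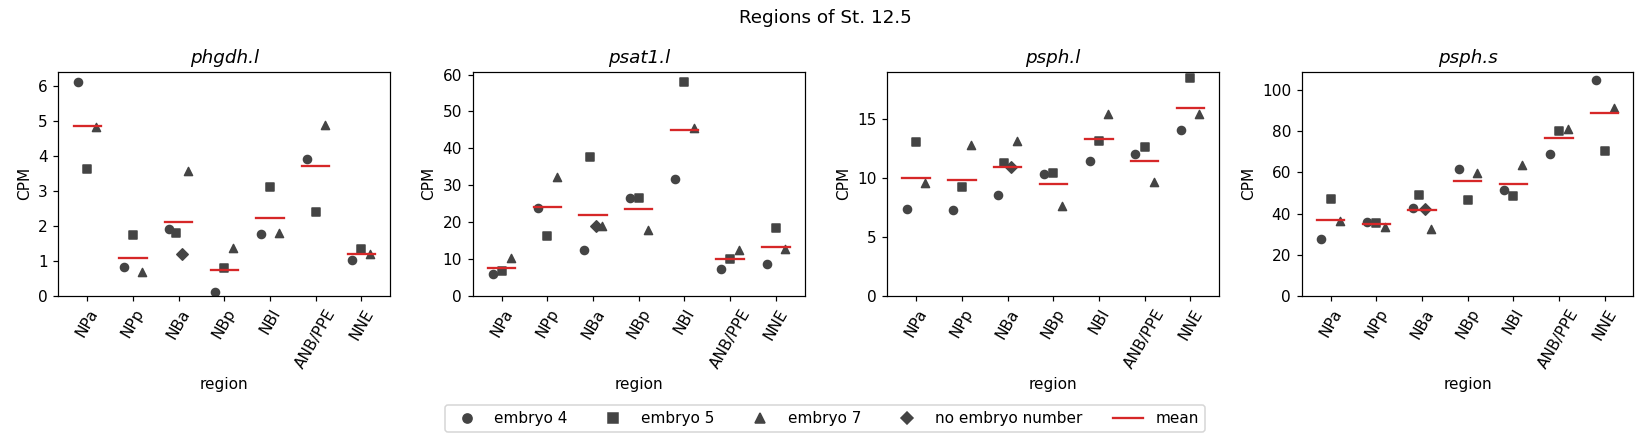
Levels (CPM) of the 4 loci called among the regions of St. 12.5, with 1 point per library, shapes for the embryo and a line at the mean. psat1.l is highest in NBl (mean 45.1 CPM), phgdh.l in NPa (4.85 CPM) and psph.s and psph.l in NNE (89 and 15.9 CPM).

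Over the 5 regions sampled at both stages, St. 14 minus St. 12.5 was 5.93 ± 0.66 (SE, log2) for psat1.s, 3.03 ± 0.35 for psat1.l, 2.16 ± 0.43 for psph.l and 1.15 ± 0.30 for psph.s. It was 0.72 ± 0.34 for phgdh.l, 0.44 ± 0.30 for phgdh.s, 0.07 ± 0.12 for shmt2.l, -0.10 ± 0.13 for shmt2.s and -0.20 ± 0.31 for asns.l. The same explant values chose the loci, so no test is given. Without embryos 10 and 11, and so without NPa of St. 14, the value for psph.l was 0.18. Those for psph.s (-0.08), phgdh.l (-0.19), phgdh.s (-0.86) and shmt2.l (-0.16) turned negative. The psat1 values also draw on embryos 10 and 11. psat1.s had a St. 14 median of 68.4 CPM in them, against 2.77 CPM in the other explants, and psat1.l 198 CPM, against 35.8 CPM. At St. 12.5 psat1.s had only 0 to 13 counts in explants. The 13 highest St. 14 libraries for chac1-like.l were those of embryos 10 and 11, and at St. 12.5 no explant had more than 4 counts of it.

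At St. 17, NC and Pc differed for 2 of the 8 loci tested, against 31.7% of all loci. Levels in these explants also chose the loci, so the FDRs are descriptive. psph.l had 14.4, 17.1, 5.09 and 19.5 CPM in NC, against 46.7 and 45.9 CPM in Pc (log2 difference -1.63 ± 0.41, FDR 0.0136). shmt2.l had 37.1, 39.6, 38.3 and 27.1 CPM in NC, against 18.5 and 18.1 CPM in Pc (1.04 ± 0.23, FDR 0.00697). The groups did not overlap in either case. Nor did they for phgdh.s and psph.s, which were not called by edgeR. psph.s had 16.1 to 38.6 CPM in NC, against 48 and 50.2 CPM in Pc (-0.69 ± 0.30, FDR 0.11). The share of all loci with such a separation was not computed. phgdh.s had 1.76, 2.6, 1.37 and 2.86 CPM in NC, against 4.8 and 5.68 CPM in Pc, and did not pass by edgeR (-1.19 ± 0.42, FDR 0.053) but did by DESeq2 (0.0478) and limma-voom (0.0372). With a single Pc library left, the psph.l and shmt2.l calls were lost, at FDRs of 0.0572 and 0.0689 for psph.l and 0.0588 and 0.0784 for shmt2.l.

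In whole embryos, which hold all germ layers, 9 of the 10 loci differed among the 8 stages, against 77.2% of all loci, and shmt2.s did not (FDR 0.0626). Whole-embryo levels of matching stage also entered the choice of the loci, so these FDRs are descriptive. phgdh.s fell most steadily (FDR 1.72e-07): its mean was 24 CPM at St. 11-11.5, 22.1 at St. 12, 15.2 at St. 12.5, 9.98 at St. 13, 6.36 at St. 14, 6.16 at St. 14-15, 5.29 at St. 16-17 and 4.38 at St. 18-19. psat1.l had means of 8.68 CPM at St. 11-11.5 and 4.95 CPM at St. 13, stood at 26.5 CPM at St. 14, and had 9.76 CPM at St. 14-15 and 13.1 CPM at St. 18-19. chac1-like.l had 1 and 4 counts at St. 11-11.5 and 22 and 17 counts at St. 18-19. Without the 2 St. 14 libraries, the calls for psat1.s (FDR 0.407), psph.s (0.163) and phgdh.l (0.0994) were lost, and the other 6 held, against 71.1% of all loci. With single libraries left out, the asns.l call (FDR 0.0454) was lost in 12 of 16 fits (0.028 to 0.105), that for phgdh.l (0.0348) in 7 (0.0161 to 0.121) and that for psph.s (0.0186) in 3 (0.0106 to 0.0811).

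**Figure D5:**
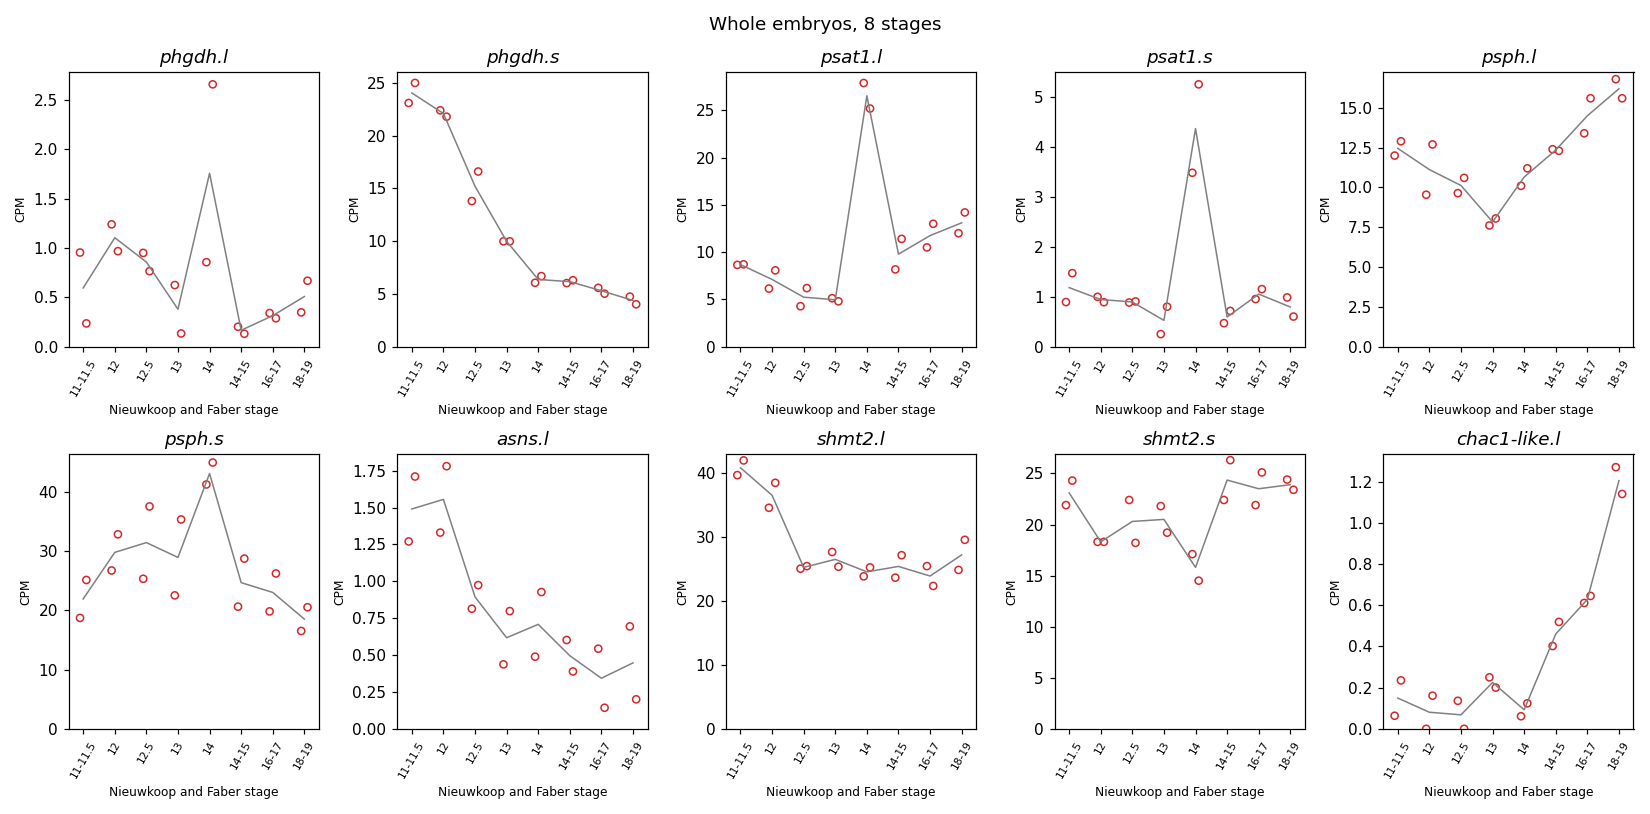
Levels of the 10 loci (CPM, linear axes from 0) in the 16 whole-embryo libraries by stage, with 1 point per library and a line through the means. phgdh.s is highest at the earliest stage (24 CPM) and lowest at the latest (4.38 CPM), and psat1.l (26.5 CPM) and psat1.s stand out at St. 14.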

How the data were processed

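Polyadenylated RNA of 63 dissected ectoderm fragments and 16 whole-embryo libraries was sequenced as stranded paired-end libraries. The authors aligned reads with TopHat2 2.0.14 to the X. laevis 9.1 genome, left out pairs that map to several places, and deposited raw counts of fragments per locus made with HTSeq, with gene models of annotation 1.8 extended by Cufflinks 2.2.1. No column lacked a sample (0 such columns). HTSeq's 5 summary entries were left out of library sizes.

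Groups follow the stage and the region that the labels give each library. Counts were scaled by TMM and tested with edgeR 4.0.16 (quasi-likelihood F test, loci passing 10 counts in 2 or more libraries of a fit, Benjamini-Hochberg FDR under 0.05 over all loci tested), in R 4.3.3. CPM are TMM-scaled. Standard errors were taken from the F statistic. The loci and gene lists were chosen with earlier results of these data known. Of each gene list, the text names at most 4 loci, those with the smallest p in explants against whole embryos at St. 12.5 or 14, and any copy of atf4, atf3, ddit3, trib3 and cebpb (the table names no trib3), and it names the 5 loci most like the listed 6. Of the 10 loci, 10 matched a RefSeq symbol.

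The labels give an embryo number, read here as marking fragments of the same animal and so pairing libraries. The study reports that neighboring pieces of the same embryo were chosen where it could, and that replicates came from different embryos and clutches. The labels give some groups 2 libraries of the same number (NPa of embryo 10, NNEp of 11, ANF/PPE of 12, NBa of 2). Which libraries are paired was read from the labels. As a check, deviations from region means correlated across loci with a median r of 0.22 within an embryo, against -0.12 between embryos at St. 12.5, and 0.10 against -0.03 at St. 14. Alternatives were embryo as a block, DESeq2 1.42.0 with its own size factors, those size factors in edgeR, limma-voom (limma 3.58.1), no filter, a filter of more than 20 counts, B108 libraries alone, whole embryos of other stages, and leaving out each library. The embryo comparison at St. 14, the fits without embryos 10 and 11 or without the St. 14 whole embryos, and the blocked pairs of regions were added after the data had been seen. On simulated data with 200 changed loci, the embryo test at St. 14 recovered 82% of 4-fold and 35% of 2-fold changes (21103 loci) and the region test at St. 12.5 61% and 4% (20306 loci).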

Additional observations from a re-analysis of the deposited data

Results flagged for a closer look

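Within groups of 4 to 10 libraries, single libraries lay far from the rest of their group in 15 of 70 cases of a locus and a group, where chance gives about 1 in 20 for independent groups, which these are not, since the 10 loci share the same libraries. The ANF/PPE library of embryo 10 at St. 14 was far above the other 4 ANF/PPE libraries for asns.l (2.75 CPM), psat1.l (592 CPM), psat1.s (201 CPM), psph.l (181 CPM), phgdh.s (91.6 CPM) and chac1-like.l (542 CPM). The NBp library of embryo 10 was far above the other 4 NBp libraries for psat1.l (215 CPM), psat1.s (46.7 CPM), psph.l (95.9 CPM), psph.s (192 CPM), phgdh.l (2.82 CPM), phgdh.s (56.2 CPM) and chac1-like.l (257 CPM). These 13 cases come from the only library that embryos 10 and 11 gave to either region. The undivided NB library 4, without an embryo number, was far above the other 3 for phgdh.l (3.88 CPM) and chac1-like.l (2.04 CPM).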

How the results depend on the processing

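Of the counts of loci called, 65 of 71 stayed within 1.5 times under the alternatives that keep every library of a fit or drop whole sets. The exceptions were explants against whole embryos with whole embryos of St. 12 and 13 (10355, against 6870) or of St. 14-15 (7797, against 4579), embryos with DESeq2 (2612, against 1577 at St. 12.5; 4271, against 2084 at St. 14), and, without embryos 10 and 11, embryos at St. 14 (68, against 2084) and regions of St. 14 (6427, against 12136). With single libraries left out, counts ran from 2038 to 7571 (St. 12.5), 1286 to 4783 (St. 14) and 1120 to 5172 (St. 17, 4394 with all) for explants against whole embryos, from 2708 to 6228 for NC against Pc (6493 with all), from 1050 to 1745 for embryos at St. 12.5 and from 1292 to 2728 for embryos at St. 14. The low ends came from fits with 1 whole embryo or 1 Pc library, or without NBl replicate 1 of St. 12.5 or NBa replicate 3 of St. 14. Embryo as a replicate block gave 8945 calls among regions of St. 12.5, against 8038, and 11268 among regions of St. 14, against 12136. At St. 12.5 it kept the 4 calls, and at St. 14 it added those given above. Leaving out NBp replicate 2 of St. 14 alone let psat1.l (FDR 0.00986), psat1.s (0.0144), psph.l (0.0221) and shmt2.l (0.0149) pass among regions. Without embryos 10 and 11, and so without NPa of St. 14, directions turned for St. 14 minus St. 12.5 (phgdh.l -0.19, phgdh.s -0.86, psph.s -0.08, shmt2.l -0.16). In that comparison they also turned for asns.l with B108 libraries (0.07) and for shmt2.s without NPp replicate 3 of St. 12.5 (0.02). For NC minus Pc, with single libraries left out, chac1-like.l ran from -2.36 to 1.08, psat1.s from -1.53 to 1.95 (the positive ends without Pc replicate 2) and shmt2.s from -0.04 (without NC replicate 3) to 0.18, with -0.03 without Pc replicate 2. The causes were not tested. Depth limits asns.l, phgdh.l, psat1.s and chac1-like.l most, which have 10 counts or fewer in many libraries.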
